A study of Mus musculus with 29 samples.

Results

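Sox2ot, Rmst, Miat and Pantr1 are 4 long non-coding RNAs of the developing nervous system, chosen by name, and all 4 are listed among the 25239 genes of each RNA count table. Their levels were followed in 8 poly(A) RNA-seq libraries of mouse embryos at E11.5, in 4 groups of 2 pools: wild-type forebrain, forebrain of embryos with the hs267-853 knockout, wild-type midbrain, and midbrain of embryos with the hs654 knockout. The names hs654 and hs267-853 denote deleted enhancers, elements that regulate genes from a distance, and the labels do not say whether the second name covers 1 or 2 deletions. Each pool joined tissue of several embryos of one genotype, so it averages over embryos and cell types. The remaining 21 samples of the series are enhancer-capture Hi-C and were not analysed here.

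Long non-coding RNAs are long transcripts that are not translated into a known protein, many of them spliced and polyadenylated like messenger RNA. Sox2ot (Sox2 overlapping transcript) is a multi-exon RNA whose gene contains Sox2, the gene of a transcription factor that maintains neural progenitors. Rmst is known from midbrain and roof and floor plate territories of the embryonic brain, and its human counterpart binds SOX2 during neuronal differentiation. Miat, also called Gomafu, stays in the nucleus of neurons and binds splicing regulators. Pantr1 lies beside Pou3f3, the gene of a POU-domain transcription factor of neural progenitors and upper-layer cortical neurons.

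Total counts over genes ran from 9051632 to 18024406 per library, and 15383 genes had enough counts to be tested. The tissue labels were checked by regional genes: 8 midbrain and isthmus genes summed to 61.6 to 91.5 CPM (counts as a share of the TMM-scaled library total) in forebrain and 513 to 549 CPM in midbrain. An enhancer deletion leaves no gene row of its own, so gene counts gave no check of genotype. Knockout forebrain replicate 1 stood apart on the second principal component (score 33.7, the other 7 libraries -18.3 to 1.66), and wild-type midbrain replicate 1 had 6773 CPM over 8 erythroid genes, against 3361 to 4831 CPM in the other 7. Nothing in the labels ties the pools to separate litters, so p-values measure the spread between these pools.

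In the RefSeq table of assembly GRCm38.p6, the assembly that mm10 names, Sox2ot spans chr3:34560381-34677993 and contains the whole of Sox2 (chr3:34649995-34652461) and the microRNA gene Mir1897. Rmst spans chr10:92081746-92165178, contains Mir1251, and has Mir135a-2 9561 bases from its end. Miat spans chr5:112213228-112228948 and overlaps no other gene. Pantr1 spans chr1:42648200-42694825, and 943 bases separate this span from that of Pou3f3 (chr1:42695768-42700210), whatever the strand of either gene. A second non-coding RNA of this locus, Pantr2, lies 12236 bases away from Pantr1. Sox2ot also overlaps Gm42205 and Pantr1 overlaps Gm46091. Because the strand setting of the counting is not given in the sources used here, reads over sequence shared by Sox2ot and Sox2 or their microRNA could not be attributed with certainty.

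The mature microRNAs encoded at the Rmst and Sox2ot loci are shown because they mark the small RNAs that the same stretches of genome can yield. Sequences are from RefSeq (GRCm38.p6), 5′ to 3′, with the seed (bases 2 to 8), the part that pairs with target messages, in capitals. All 5 seeds differ.
miR-135a-5p, chr10:92072141-92072163, minus strand: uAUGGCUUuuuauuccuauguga
miR-135a-2-3p, chr10:92072104-92072124, minus strand: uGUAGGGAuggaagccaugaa
miR-1251-5p, chr10:92137190-92137210, minus strand: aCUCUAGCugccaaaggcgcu
miR-1251-3p, chr10:92137152-92137172, minus strand: cGCUUUGCucagccaguguag
miR-1897-3p, chr3:34638511-34638532, plus strand: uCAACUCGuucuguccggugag

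Promoter sequence from RefSeq (GRCm38.p6) matched 1 of the 4 genes, Miat, which also had the widest regional difference below. The 250 bases before its start are printed with those of Sox2 and Pou3f3, the coding genes that Sox2ot contains and Pantr1 adjoins. Capitals mark CpG dinucleotides.
Miat, chr5:112228949-112229198, minus strand: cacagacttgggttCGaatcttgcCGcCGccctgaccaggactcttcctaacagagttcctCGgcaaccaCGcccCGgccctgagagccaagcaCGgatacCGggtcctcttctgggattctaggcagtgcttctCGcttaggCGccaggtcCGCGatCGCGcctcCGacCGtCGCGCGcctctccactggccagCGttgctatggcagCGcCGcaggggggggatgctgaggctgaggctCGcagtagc
Sox2, chr3:34649745-34649994, plus strand: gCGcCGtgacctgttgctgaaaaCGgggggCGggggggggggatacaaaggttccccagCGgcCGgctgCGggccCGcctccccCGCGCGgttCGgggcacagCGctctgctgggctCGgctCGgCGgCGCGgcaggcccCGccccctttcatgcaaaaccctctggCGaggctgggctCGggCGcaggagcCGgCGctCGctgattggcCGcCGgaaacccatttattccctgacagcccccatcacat
Pou3f3, chr1:42695518-42695767, plus strand: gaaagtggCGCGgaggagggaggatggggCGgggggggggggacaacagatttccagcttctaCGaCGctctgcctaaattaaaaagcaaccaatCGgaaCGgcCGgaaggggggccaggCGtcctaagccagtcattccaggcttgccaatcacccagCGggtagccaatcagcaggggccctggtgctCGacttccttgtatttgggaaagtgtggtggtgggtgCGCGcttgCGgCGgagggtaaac
All 3 stretches were rich in CpG. Miat had 23 of them at 65.6% G and C, Sox2 27 at 72%, and Pou3f3 15 at 60.8%, against medians of 6 and 52.4% over 32851 promoters of the same length. Fewer CpG than in Miat were found in 86.7% of those promoters, fewer than in Sox2 in 91.4% and fewer than in Pou3f3 in 72.7%. On either strand none of the 3 held the SOX core ACAAT (in 27.7% of all promoters), the POU octamer ATGCAAAT (1.60%), the homeodomain core TAATTA (4.84%), the E-box CAGCTG (13.0%) or TATAAA (12.4%). That says only that these letters are not in these windows.

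Miat and Rmst were higher in midbrain than in forebrain, in wild-type and in knockout libraries, while Sox2ot and Pantr1 did not pass the test in either. Calls were made with edgeR's quasi-likelihood test at a threshold of 0.05 on the adjusted p, and log2 fold changes between tissues are forebrain over midbrain. Of the 4 genes, 2 were lower and 0 higher in wild-type forebrain, with a median log2 fold change of -0.63. Over all 15383 genes 29.6% were called, 14.3% higher and 15.3% lower in forebrain, and the median was 0.0012. Among the 804 tested genes of the RefSeq class long non-coding RNA, 53 were higher and 110 lower (20.3% called), with a median of -0.12.

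Miat, the neuronal nuclear RNA, measured 592 and 650 CPM in wild-type forebrain (replicates 1 and 2) and 778 and 726 CPM in hs267-853 knockout forebrain. Wild-type midbrain gave 2039 and 1748 CPM, and midbrain with the hs654 knockout 1864 and 1813 CPM. Every midbrain library lay above every forebrain library. That separation in this direction held for 20.3% of all tested genes.

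In wild type Miat averaged 621 ± 40.8 CPM for forebrain against 1894 ± 206 CPM for midbrain (SD, n = 2), a 3.05-fold difference. The log2 fold change was -1.61 (SE 0.0745, 95% interval -1.77 to -1.45) (edgeR, adjusted p 7.06e-09). Between the knockout groups, whose libraries are other pools and whose deletions differ along with the tissue, it was -1.29 (SE 0.0738; edgeR, adjusted p 4.40e-08). In that comparison 29.4% of genes were called, 14.6% higher and 14.8% lower in forebrain. From lowest to highest, Miat ordered as wild-type forebrain, hs267-853 knockout forebrain, hs654 knockout midbrain and wild-type midbrain, and neither neighbouring pair within a tissue passed the test. With 8399 to 32261 Miat counts in a library, counting error was 0.557% to 1.09% of a value, below the spread between most replicates.

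**Figure D1:**
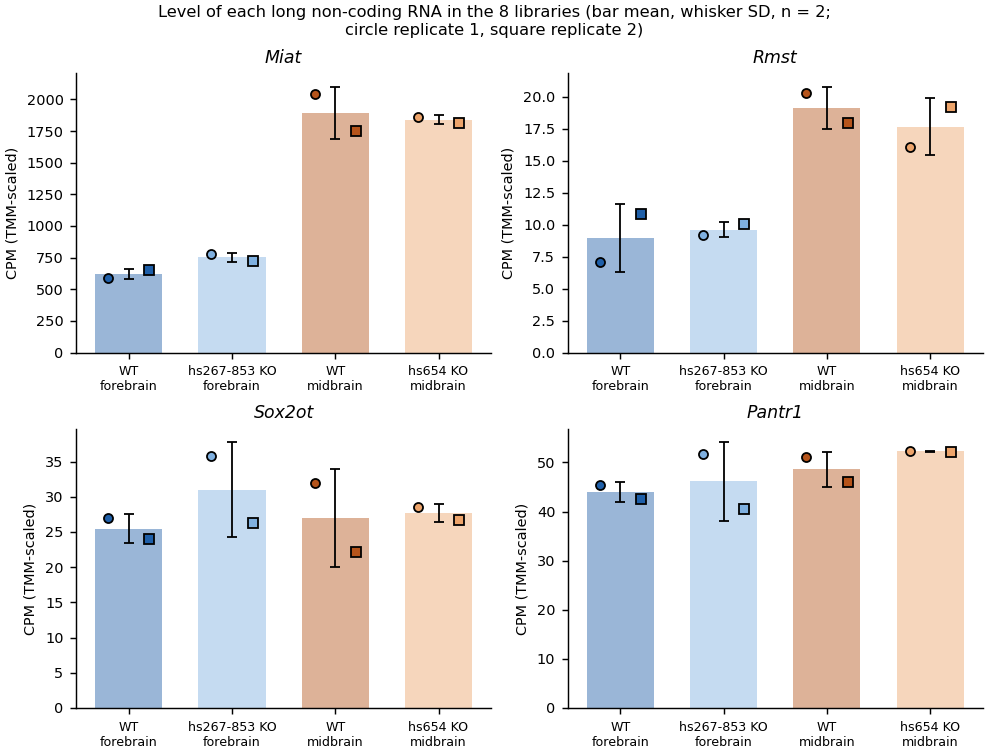
Level of each long non-coding RNA in CPM (TMM-scaled, linear axis from 0) in the 4 groups; bars are means of 2 pools, whiskers SD, circles replicate 1 and squares replicate 2. Miat lies between 592 and 778 CPM in the 4 forebrain libraries and between 1748 and 2039 CPM in the 4 midbrain libraries, Rmst separates the tissues likewise, and the Sox2ot and Pantr1 points of the tissues overlap.

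Neuronal genes differed between the tissues in the same direction as Miat. All 9 neuronal genes listed were lower in wild-type forebrain in edgeR's test (100% called, against 29.6% of all genes). Their median log2 fold change was -0.91. Snap25, a component of the synaptic vesicle fusion machinery, differed most, by -1.99, and Elavl3, an RNA-binding protein of young neurons, least, by -0.58. Summed over the 9 genes, levels were 1531 to 2178 CPM in forebrain and 3455 to 3916 CPM in midbrain. In these bulk pools, fewer cells of a type and less RNA per cell cannot be told apart.

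Set against the same 9 genes within a library, Miat came to 30.5 and 38.6 counts per 100 neuronal counts in wild-type forebrain and 35.7 and 47.4 in knockout forebrain. In midbrain it came to 56.5 and 50.6 in wild type and 49.2 and 46.3 in the knockout. The tissues overlapped on this scale, since knockout forebrain replicate 2 exceeded knockout midbrain replicate 2. The ratio divides by the neuronal sum, so a low sum by itself raises the ratio. Knockout forebrain replicate 2 had the lowest neuronal sum (1531 CPM) and the highest ratio in forebrain. The part of the neuronal genes in the Miat difference was not tested.

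Rmst, the RNA reported to bind SOX2, measured 7.05 and 10.8 CPM in wild-type forebrain and 9.19 and 10.0 CPM in hs267-853 knockout forebrain. It measured 20.3 and 18.0 CPM in wild-type midbrain and 16.1 and 19.2 CPM in hs654 knockout midbrain. The lowest midbrain library lay above the highest forebrain library, as for 20.3% of all tested genes. Counts were far lower than for Miat, from 104 to 321 in a library, so counting error alone was 5.58% to 9.81% of a value.

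Wild-type Rmst averaged 8.94 ± 2.67 CPM for forebrain against 19.1 ± 1.65 CPM for midbrain (SD, n = 2), a 2.15-fold difference. The fitted log2 value was -1.11 (SE 0.190, 95% interval -1.52 to -0.70) (edgeR, adjusted p 0.000741). For knockout forebrain over knockout midbrain it was -0.87 (SE 0.190; edgeR, adjusted p 0.00367). Without hs654 knockout midbrain replicate 2 the latter became -0.74 (adjusted p 0.0531, edgeR) and lost the call. Rmst means ordered, from lowest to highest, as wild-type forebrain, knockout forebrain, knockout midbrain and wild-type midbrain, and neighbours of one tissue did not pass the test.

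Genes of the floor plate and ventral midbrain, among the territories where Rmst is known, also differed between the tissues. Of 7 listed, 6 were lower in wild-type forebrain and 0 higher (85.7% called, against 29.6% of all genes). Their median log2 fold change was -1.41. Foxa2, the floor plate regulator, had 0 counts in all 4 forebrain libraries and 19.9 to 22.6 CPM in midbrain. Set against a floor of 3 counts per library, it was at least 91.1-fold higher in wild-type midbrain. The 7 genes, of which Lmx1a is also in the roof plate list, summed to 55.7 to 71.3 CPM in forebrain and 199 to 260 CPM in midbrain. Of 6 roof plate genes, 3 were higher and 3 lower in wild-type forebrain (100% called, against 29.6% of all genes). Their sums overlapped, at 110 to 207 CPM in forebrain and 107 to 137 CPM in midbrain. Within midbrain, wild-type replicate 1 had the highest Rmst level (20.3 CPM) and the lowest floor plate sum (199 CPM). Knockout replicate 2 had the next highest Rmst level (19.2 CPM) and the highest floor plate sum (260 CPM). Counting errors of Rmst in midbrain were 5.58% to 7.54% of a value. The part of floor plate and roof plate genes in the Rmst difference was not tested.

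**Figure D2:**
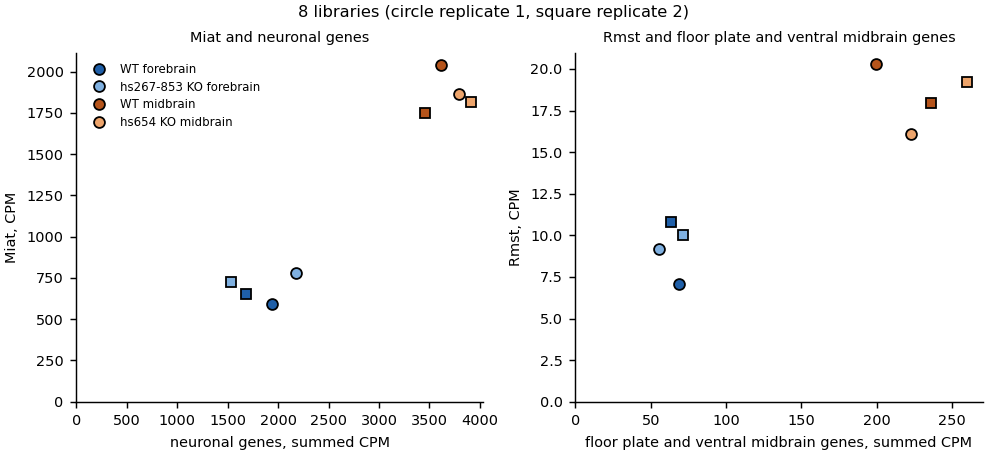
Left, Miat in CPM against the summed CPM of 9 neuronal genes; right, Rmst in CPM against the summed CPM of 7 floor plate and ventral midbrain genes; each point is 1 of the 8 libraries, coloured by group. Points form a forebrain cluster and a midbrain cluster in both panels, with neuronal sums of 1531 to 2178 and 3455 to 3916 CPM, and floor plate sums of 55.7 to 71.3 and 199 to 260 CPM.

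The microRNA rows at these loci held few counts. Mir135a-2 had 25 to 43 counts in a library, at 1.70 to 2.42 CPM in forebrain and 2.72 to 3.61 CPM in midbrain. Every midbrain library lay above those of forebrain, as for 20.3% of all tested genes. Its log2 fold change between wild-type tissues was -0.63 (SE 0.338) (edgeR, adjusted p 0.185). Mir1251 had at most 7 counts in any library and was not tested. Mir1897, inside Sox2ot, had 20 to 89 counts, and replicate 1 exceeded replicate 2 in 3 of the 4 groups in CPM. Poly(A) libraries do not capture mature microRNAs, so these rows count fragments of longer transcripts over the hairpins.

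Sox2ot did not differ detectably between the tissues. It measured 26.9 and 24.0 CPM in wild-type forebrain, 35.8 and 26.2 CPM in knockout forebrain, 31.9 and 22.1 CPM in wild-type midbrain, and 28.5 and 26.7 CPM in knockout midbrain. The 4 forebrain libraries (24.0 to 35.8 CPM) and the 4 midbrain libraries (22.1 to 31.9 CPM) overlapped almost fully. The highest value came from knockout forebrain replicate 1, the library that stood apart on the second principal component.

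Wild-type Sox2ot averaged 25.5 ± 2.09 CPM for forebrain against 27.0 ± 6.94 CPM for midbrain (SD, n = 2). On the log2 scale this difference was -0.093 (SE 0.175; edgeR, adjusted p 0.734), and its 95% interval of -0.47 to 0.29 spans -27.9% to 21.9% of the midbrain level. Without wild-type midbrain replicate 1 the value was 0.20, so 1 library set its direction. For the knockout tissues it was 0.17 (SE 0.175; edgeR, adjusted p 0.518), and -0.075 without knockout forebrain replicate 1. The replicates of wild-type midbrain were 0.53 apart on the log2 scale, with counting errors of 4.45% and 6.01%.

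Sox2, the coding gene inside Sox2ot, was higher in forebrain. Its wild-type level was 320 ± 12.5 CPM for forebrain against 216 ± 12.4 CPM for midbrain (SD, n = 2). All 4 forebrain libraries (311 to 364 CPM) lay above all 4 midbrain libraries (206 to 233 CPM), a separation whose share over all genes was not computed. The log2 fold change was 0.57 (SE 0.0714; edgeR, adjusted p 5.91e-05), and 0.67 between the knockout groups (edgeR, adjusted p 1.62e-05). The list of 9 neural progenitor genes, of which Sox2 is one, was split between the wild-type tissues. It held 4 genes higher and 3 lower in forebrain (77.8% called, against 29.6% of all genes), with a median of -0.027. Its extremes were Pax6, a regulator of forebrain and eye progenitors, at 1.18, and Fabp7, a fatty acid binding protein of radial glia, at -1.02.

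A ratio within a library does not depend on library scaling, so Sox2ot was set against Sox2 directly. Sox2 lies inside the Sox2ot span and the strand setting is not given, so reads over shared sequence could not be attributed with certainty. Per 100 Sox2 counts there were 7.30 to 9.83 Sox2ot counts in the 4 forebrain libraries and 9.85 to 15.4 in the 4 midbrain libraries. The ranges did not overlap, by a narrow margin. The mean log2 ratio was lower in forebrain by 0.58, with an exact two-sided permutation p of 0.0286, the smallest that 4 against 4 libraries allow, and 0.0381 adjusted over 4 ratios. This test pooled wild-type and knockout libraries of a tissue. The difference was -0.63 in wild-type libraries alone and -0.52 in knockout libraries alone. The ratio was chosen after its values were seen, and ranges that do not overlap fix the permutation p at its smallest. The 4 ratios of the adjustment include Rmst to Sox2, which had to separate the tissues. The p is therefore a description and not an independent test.

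Rmst was set against Sox2 in the same way, as the RNA and the protein's gene that are reported to act together. There were 2.27 to 3.29 Rmst counts per 100 Sox2 counts in forebrain and 7.79 to 9.81 in midbrain. The log2 ratio differed by -1.62. Since Rmst was lower and Sox2 higher in every forebrain library, this ratio had to separate the tissues, and it is given as a description of those 2 differences.

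Pantr1 was close to even across the 4 groups. It measured 45.4 and 42.5 CPM in wild-type forebrain, 51.8 and 40.4 CPM in knockout forebrain, 51.1 and 46.1 CPM in wild-type midbrain, and 52.3 and 52.2 CPM in knockout midbrain. Both wild-type forebrain libraries lay below both wild-type midbrain libraries, a separation whose share over all genes was not computed. Knockout forebrain replicate 1 reached the midbrain level. Counts of 478 to 913 in a library gave a counting error of 3.31% to 4.57%.

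Wild-type Pantr1 averaged 43.9 ± 2.06 CPM for forebrain against 48.6 ± 3.60 CPM for midbrain (SD, n = 2). On the log2 scale that was a difference of -0.15 (SE 0.113, 95% interval -0.39 to 0.097; edgeR, adjusted p 0.362). It was -0.072 without wild-type midbrain replicate 1 and -0.098 without wild-type forebrain replicate 2. The knockout tissues differed by -0.18 (SE 0.113; edgeR, adjusted p 0.270). Without hs267-853 knockout forebrain replicate 1 this became -0.37 (adjusted p 0.0203, edgeR), past the threshold.

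Pou3f3, next to Pantr1, went the other way in wild type. Its level was 416 ± 9.33 CPM for forebrain against 347 ± 4.06 CPM for midbrain (SD, n = 2), with a log2 fold change of 0.26 (SE 0.0898; edgeR, adjusted p 0.0426). For the knockout tissues the value was 0.21 (edgeR, adjusted p 0.104), and over all 8 libraries the tissues overlapped. Pantr2, the other non-coding RNA of the locus, had only 41 to 88 counts in a library and 3.14 to 7.57 CPM, with a log2 fold change of 0.14 (SE 0.322; edgeR, adjusted p 0.780).

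Relative to Pou3f3 the 2 tissues separated clearly for Pantr1. There were 10.4 to 11.2 Pantr1 counts per 100 Pou3f3 counts in forebrain and 13.2 to 14.9 in midbrain, with SDs of 0.376 and 0.766 (n = 4 each). Knockout forebrain replicate 1, high in both genes, fell within the forebrain range of the ratio. The log2 ratio was lower in forebrain by 0.40 (exact permutation p 0.0286, the smallest possible, and 0.0381 adjusted over 4 ratios). This test too pooled wild-type and knockout libraries of a tissue, and the deletions differ along with the tissue. Ranges that do not overlap fix the permutation p at its smallest. This ratio too was chosen after its values were seen, so its p is a description and not an independent test. For Pantr2 the ranges overlapped, at 0.872 to 1.32 and 0.937 to 2.09 counts per 100, and the exact permutation p was 0.171.

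**Figure D3:**
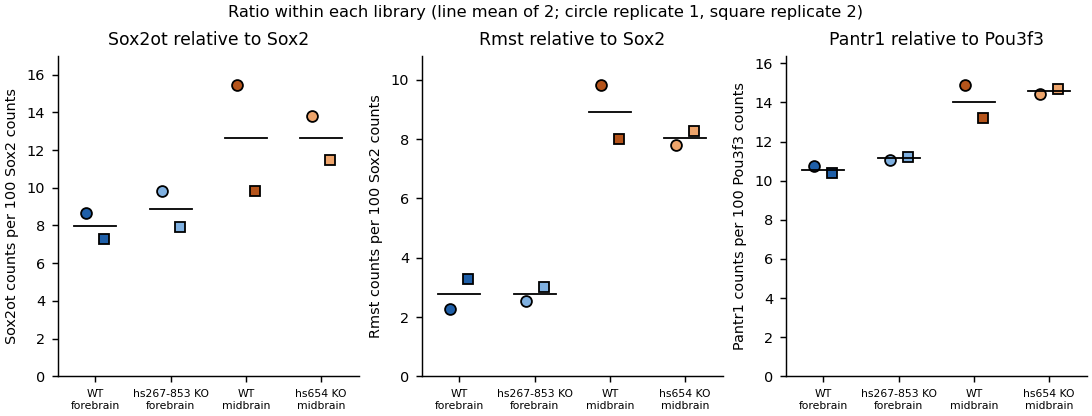
Counts of Sox2ot per 100 Sox2 counts, Rmst per 100 Sox2 counts and Pantr1 per 100 Pou3f3 counts in each of the 8 libraries (linear axes from 0; lines are means of 2 pools). All 3 ratios are lower in every forebrain library than in every midbrain library, narrowly so for Sox2ot (9.83 against 9.85) and widely for Rmst (3.29 against 7.79).

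The hs654 comparison asked whether loss of this enhancer changes expression in midbrain, and none of the 4 RNAs passed the test. By edgeR 0 of 15383 genes passed (0%), with 609 at an unadjusted p under 0.05, and DESeq2 and limma-voom also called 0. The Miat level was 1894 ± 206 CPM for wild type against 1839 ± 36.5 CPM for the knockout (SD, n = 2). On the log2 scale the difference was -0.043 (95% interval -0.20 to 0.11), an interval of -12.9% to 8.23% of the wild-type level. The value was -0.12 for Rmst (interval -0.52 to 0.27), 0.026 for Sox2ot (-0.36 to 0.41) and 0.10 for Pantr1 (-0.14 to 0.35). With 1 library left out, those of Miat, Rmst and Sox2ot took either sign. For Pantr1 it ranged from 0.030 (without wild-type midbrain replicate 2) to 0.18 (without wild-type midbrain replicate 1). No gene of the cell type lists was called in this comparison, but signs were shared in some lists. All 9 neuronal genes (median 0.12), 7 floor plate genes (0.14), 8 mesenchymal genes (0.16) and 5 endothelial genes (0.15) were above 0. All 8 erythroid genes were below 0 (-0.48). Erythroid sums were 6773 and 3606 CPM in wild type (replicates 1 and 2) and 3817 and 3361 CPM in the knockout. Mesenchymal sums were 1363 and 1909 against 1743 and 1874 CPM, and endothelial sums 198 and 247 against 241 and 252 CPM. In these sums wild-type replicate 1 lay apart from the other midbrain libraries. Neuronal sums did not overlap (3455 to 3611 and 3791 to 3916 CPM). The part of these lists in the values of the 4 RNAs was not tested. Both knockout libraries lay above both wild-type libraries for Pantr1, as they did for 17.9% of tested genes.

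In forebrain the hs267-853 comparison put the same question, and again none of the 4 passed. Of 15383 genes, 2 were called (0.0130%). All 4 log2 fold changes were above 0, with a median of 0.19 against 0.0078 over all genes. Miat came closest: both knockout libraries (726 and 778 CPM) lay above both wild-type libraries (592 and 650 CPM), as for 17.2% of tested genes. The knockout mean was 752 ± 36.8 CPM, against a wild-type mean of 621 ± 40.8 CPM (SD, n = 2).

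The log2 fold change of Miat in knockout forebrain was 0.28 (SE 0.0730, 95% interval 0.12 to 0.43; edgeR, unadjusted p 0.00236, adjusted p 0.713). Its p ranked 51 among all genes. With no filter on low counts, the value was 0.27 and edgeR's adjusted p 0.000279, which passes, and over all alternatives the adjusted p ranged from there to 1. The 9 neuronal genes had a median log2 fold change of 0.042 in this comparison, 8 of them above 0 and 0 called. The 9 progenitor genes had a median of 0.058, with 9 above 0 and 0 called. Progenitor sums were 4177 and 3673 CPM in the knockout (replicates 1 and 2) and 3691 and 3748 CPM in wild type. Neuronal sums were 2178 and 1531 CPM against 1942 and 1685 CPM. In both lists knockout replicate 1 had the highest sum in forebrain and knockout replicate 2 the lowest. The part of these lists in the Miat value was not tested.

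For Sox2ot the knockout forebrain value was 0.29 (95% interval -0.085 to 0.66; edgeR, adjusted p 0.984). Without knockout replicate 1 it was 0.042, and without knockout replicate 2 it was 0.49. The value was 0.11 for Rmst (-0.32 to 0.54) and 0.072 for Pantr1 (-0.17 to 0.31), and both turned negative with 1 library left out, Rmst to -0.17 without wild-type replicate 1 and Pantr1 to -0.12 without knockout replicate 1. In the same knockout replicate 1 the 8 mesenchymal genes summed to 1242 CPM, against 1728 to 2165 CPM in the other 3 forebrain libraries. Their part in these values was not tested.

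The knockout effect in midbrain minus that in forebrain was tested as such. It equals the wild-type tissue difference minus the knockout tissue difference, and the deletions differ along with the tissue. Over all genes 1 was called (0.00650%). Miat differed by -0.32 (SE 0.103, 95% interval -0.54 to -0.096; edgeR, unadjusted p 0.00863, adjusted p 0.996), and with no filter on low counts by -0.31, past the threshold (edgeR, adjusted p 0.0188). Without wild-type midbrain replicate 1 the difference was -0.20, and the range with 1 library left out was -0.43 to -0.20. Sox2ot differed by -0.26, Rmst by -0.23 and Pantr1 by 0.030, each with an interval that includes 0.

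**Figure D4:**
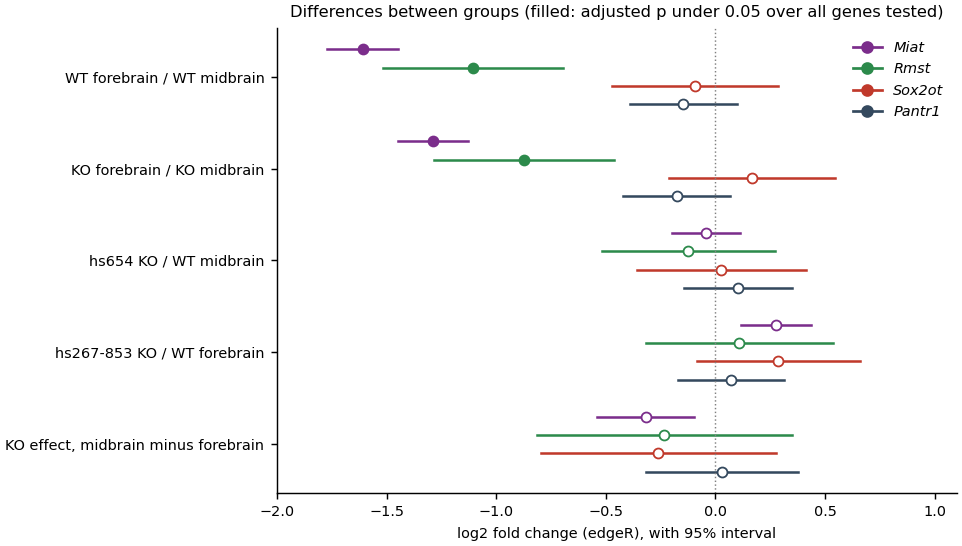
Log2 fold change of Miat, Rmst, Sox2ot and Pantr1 in 5 comparisons, with 95% intervals; filled points have an adjusted p under 0.05 over all genes tested in edgeR. Filled points are Miat (-1.61 and -1.29) and Rmst (-1.11 and -0.87) in both tissue comparisons, and all knockout points are open.

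The messenger RNAs of 5 proteins reported to bind these RNAs were measured in the same libraries. In wild-type forebrain Sox2 was higher and Celf3 lower, and 3 did not pass (40% called, against 29.6% of all genes). Celf3, a splicing regulator reported to bind Miat, stood at 87.6 ± 6.55 CPM for forebrain against 147 ± 4.67 CPM for midbrain (SD, n = 2), with a log2 fold change of -0.74 (edgeR, adjusted p 0.000388). Qk, which encodes the splicing regulator Quaking, measured 484 to 499 CPM in forebrain and 479 to 503 CPM in midbrain. The splicing factor genes Srsf1 and Sf1 had values of 0.093 and 0.12 in wild type. In the knockout tissue comparison both passed in edgeR, at 0.16 (adjusted p 0.0466) and 0.15 (adjusted p 0.0392), as did Sox2 and Celf3 (80% called, against 29.4% of all genes). None of the 5 was called in a knockout comparison.

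Other non-coding RNAs gave the scale for these differences. Of 30 listed, 8 were higher and 11 lower in wild-type forebrain (63.3% called, against 29.6% of all genes), with a median log2 fold change of -0.064. The list was chosen with regional and neural RNAs in mind and with earlier results known. Highest in forebrain was Dlx6os1, the RNA antisense to Dlx6 in ventral forebrain, at 3.46 (edgeR, adjusted p 2.68e-08). Lowest was Nkx2-2os, with 0 counts in either wild-type forebrain library; its wild-type midbrain level of 5.76 ± 0.0973 CPM (SD, n = 2) was at least 24.8-fold higher than the floor of 3 counts per library. Ranked by fold change, Miat stood between Snhg11 (-2.57) and Mir124a-1hg (-1.57), and Rmst between Mir124a-1hg and Mir124-2hg (-1.08); these neighbours, of which the latter are hosts of the neuronal microRNA miR-124, were named after their values were seen.

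In hs267-853 knockout forebrain 1 of the 30 was called, C130071C03Rik, a host transcript of the neural microRNA miR-9. Its level was 284 and 295 CPM in wild-type forebrain, and knockout forebrain gave 122 and 89.1 CPM. This is a log2 fold change of -1.46 (SE 0.111; edgeR, adjusted p 0.000133). It was also the 1 call among the 30 for the difference between the knockout effects, and 0 of 30 were called in hs654 knockout midbrain.

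**Figure D5:**
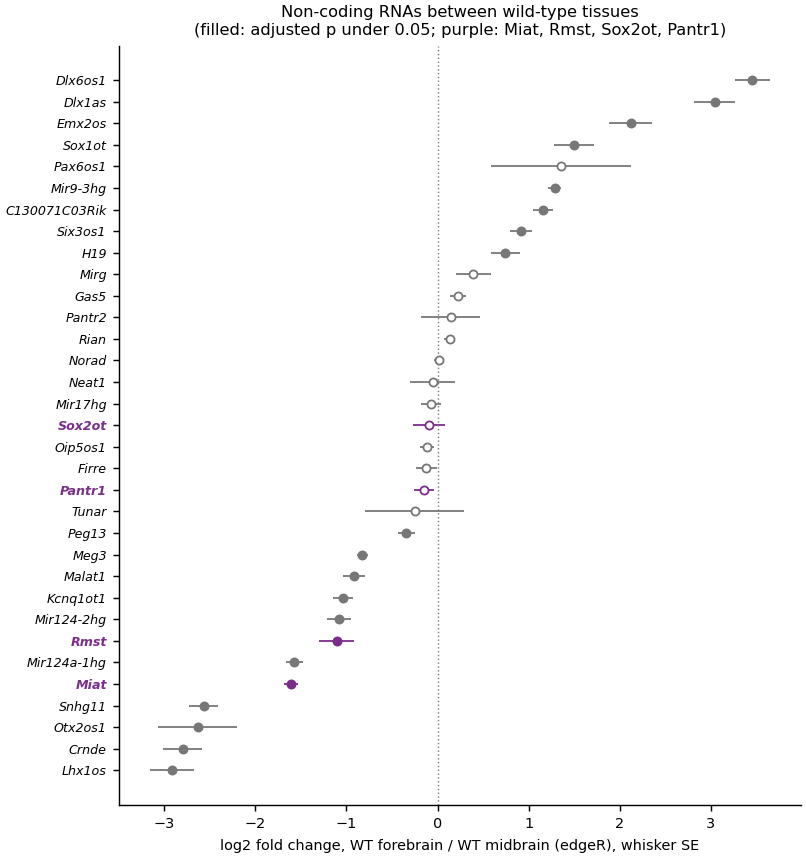
Log2 fold change between wild-type forebrain and wild-type midbrain for the 4 RNAs (purple) and 29 other non-coding RNAs (grey), with SE; filled points have an adjusted p under 0.05 in edgeR. Nkx2-2os, with 0 counts in wild-type forebrain, is left out of the plot. Miat (-1.61) and Rmst (-1.11) lie among the RNAs that are lower in forebrain, and Sox2ot (-0.093) and Pantr1 (-0.15) near 0.

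Genes whose log2 CPM followed each RNA most closely over the 8 libraries were found by Pearson's r among 10606 genes with a mean of at least 10 CPM. The 8 libraries fall into 2 tissues, so a high r for Miat or Rmst mostly restates the tissue difference. Closest to Miat were Meg3, an imprinted non-coding RNA (r = 0.998), Dbx1, a homeodomain factor of progenitors (0.998), and Draxin, a secreted axon guidance protein (0.997). All 3 were lower in wild-type forebrain in edgeR's test, with log2 fold changes of -0.82, -4.71 and -2.19. Draxin lay between 32.8 and 34.3 CPM in wild-type forebrain and between 42.4 and 45.4 CPM in the knockout. It was picked for following Miat over these same libraries, so this split is part of that likeness. Both knockout forebrain libraries lay above both wild-type libraries for 17.2% of tested genes.

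Rmst was followed most closely by Dennd6b (r = 0.985), Exoc5, a subunit of the exocyst (0.982), and Ralgapa1 (0.982), all lower in wild-type forebrain, with log2 fold changes of -0.71, -0.47 and -0.26. For Pantr1 the closest were 2700081O15Rik (0.973), Pdcl (0.969) and Map4k4, a kinase (0.965), and for Sox2ot Fabp5, a fatty acid binding protein (0.942), Oser1 (0.927) and Ndufa12, an accessory subunit of respiratory complex I (0.906). None of these 6 was called between the wild-type tissues. Sox2 was not among the 3 closest to Sox2ot, nor Pou3f3 among those closest to Pantr1.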

How the data were processed

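The authors deposited raw read counts per gene symbol, 1 table per library, with no normalization. STAR, HTSeq and DESeq2 and the build mm10 are named in the submitters' processing notes, and versions, annotation and strand setting are not given in the sources used here. Rows that name no gene (no feature, ambiguous and the like) were left out of library sizes; of reads in genes, no feature or ambiguous, genes held 40.7% to 44.1% per library and no feature 55.4% to 58.9%.

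From these counts, edgeR 4.0.16 (R 4.3.3) removed genes of low count with filterByExpr, scaled libraries by TMM (factors 0.978 to 1.01) and fitted its quasi-likelihood model, 1 mean for each group, to all 8 libraries. P-values are two-sided and were adjusted by Benjamini-Hochberg over 15383 genes, with a threshold of 0.05. Each SE was derived from the log2 fold change and the F value, and 95% intervals from the t distribution with 12.7 degrees of freedom, so they are approximate. Log2 CPM used a prior count of 2. Floors of 3 counts and counting errors cover counting only.

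On simulated counts for the wild-type tissue comparison (15383 genes, 15145 tested, 200 changed), 142 were called, 12 of them falsely. The share recovered was 85.7% at 2-fold and 46.9% at 1.5-fold. In the data 4548 genes were called in this comparison, far more than the 200 changed here. The shares of recovered and false calls therefore need not carry over to the data.

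The genes and lists were chosen with earlier results of these data known, and the ratios to Sox2 and Pou3f3 after their values were seen. Genes were named by a written rule: the 4 RNAs, their neighbours and reported partners, the extremes of each list, list members called in a knockout, and the 3 closest genes by r. Levels were not compared between genes, for which transcript lengths would be needed. Alternatives were RLE scaling, DESeq2 1.42.0, no filter, a minimum mean count of 50, limma-voom (limma 3.58.1), only the 4 libraries compared, a replicate block, and each library left out. A list of forebrain genes is not reported here.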

Additional observations from a re-analysis of the deposited data

How the results depend on the processing

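Miat and Rmst were lower in wild-type forebrain and past the threshold under all 15 alternatives, with log2 fold changes of -1.71 to -1.50 for Miat and -1.44 to -0.82 for Rmst. Between the knockout groups Miat also passed under all 15 (-1.34 to -1.24), and Rmst under all but 1: with each library left out it ranged from -1.02 to -0.74, the latter without hs654 knockout midbrain replicate 2.

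With 1 library left out at a time, values that did not pass could turn sign or pass. Sox2ot ranged from -0.32 to 0.20 between the wild-type tissues, from -0.075 to 0.37 between the knockout groups, from -0.21 to 0.33 for hs654 and from -0.49 to 0.040 for the difference between the knockout effects. Pantr1 ranged from -0.22 to -0.072 between the wild-type tissues, from -0.37 to -0.011 between the knockout groups, from 0.030 to 0.18 for hs654, from -0.12 to 0.24 for hs267-853 and from -0.14 to 0.22 for the difference. Rmst ranged from -0.25 to 0.015 for hs654, from -0.17 to 0.44 for hs267-853 and from -0.57 to 0.050 for the difference, and Miat from -0.15 to 0.076 for hs654 and from -0.43 to -0.20 for the difference.

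Without a filter on low counts Miat passed in knockout forebrain (0.27) and for the difference between the knockout effects (-0.31, adjusted p 0.0188, edgeR). The genes called then numbered 22 for hs654, 161 for hs267-853 and 111 for the difference; the cause was not tested. DESeq2 called 13 genes for hs267-853 and 4 for the difference, limma-voom 1 for hs267-853, and edgeR on the 4 libraries compared 1 for hs654 and 1 for hs267-853. With 1 library left out, the genes called ranged from 2816 (without wild-type midbrain replicate 1; 3019 without wild-type forebrain replicate 2) to 5285 between the wild-type tissues. Between the knockout groups they ranged from 2810 (without hs654 knockout midbrain replicate 2; 2845 without replicate 1) to 4358. They ranged from 0 to 8 for hs654 (8 without wild-type midbrain replicate 2, 2 without knockout replicate 1) and from 1 to 209 for hs267-853 (209 without knockout forebrain replicate 2, 9 without replicate 1, 1 without either hs654 knockout library). For the difference the range was 0 (without hs654 knockout midbrain replicate 2) to 64 (without knockout forebrain replicate 2).

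The labels do not say that replicate numbers pair the pools, and deviations of same-numbered libraries correlated across genes at only -0.025 to 0.067. Sox2ot and Pantr1 were nevertheless higher in replicate 1 than in replicate 2 in every group. The log2 gaps were 0.094 to 0.53 for Sox2ot and 0.0027 to 0.36 for Pantr1. With the replicate number as a block, 4501 genes were called between the wild-type tissues and no call on the 4 RNAs changed. The block lowered the SE of Sox2ot between the wild-type tissues from 0.175 to 0.126. For hs267-853 the unadjusted p of Sox2ot went from 0.119 to 0.0442 (edgeR, adjusted p 0.966 with the block). The ratio of Pantr2 to Pou3f3 differed by -0.065 in wild-type libraries alone and by -0.83 in knockout libraries alone. Levels per kilobase were not run. At 104 to 321 counts, depth limits Rmst most.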
